A study of Mus musculus with 21 samples.

Results

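The odorant receptor genes Olfr832 to Olfr984 lie in the class II receptor clusters of mouse chromosome 9. They were taken by gene symbol, with pseudogene symbols left out, and 104 of them had a row in both deposited expression tables, out of 1089 odorant receptor genes with the prefix Olfr (9.55%). All 104 were placed on chromosome 9 by the RefSeq annotation of GRCm38.p6, in 2 clusters 17.4 Mb apart. The proximal cluster held 28 of these genes between 18944650 and 20301170, and the distal cluster held 76 of them between 37745300 and 40101488. All Olfr genes outside this number range, whatever their position, are called other Olfr genes here. RefSeq lists 101 of the genes as protein coding, 2 as transcribed pseudogenes (Olfr844 and Olfr908) and 1, Olfr915, as a miscellaneous RNA.

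An odorant receptor is a G protein-coupled receptor of the cilia of olfactory sensory neurons (OSNs). A mature neuron keeps a single allele of a single receptor gene active while the other receptor genes sit in heterochromatin, so bulk RNA of the epithelium is a mixture in which each receptor comes from a small group of neurons. Enhancers bound by Lhx2 and Ebf factors lie within the receptor clusters, and the receptor protein, once made, feeds back on the choice. Class II receptors are the tetrapod class and make up most of the family. Expression begins in immature neurons and is highest in mature ones.

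The study expressed Mex3a, an RNA-binding protein, fused to HyperTRIBE, an RNA-editing domain that marks bound transcripts, together with mCherry in mouse OSNs. Cells of the main olfactory epithelium were sorted into mCherry-positive OSNs and the mCherry-negative cells of the same mouse, which served as an internal control and still include OSNs. In the mice called HT here (genotype gg8tTA; OMPtTA; tetO-HyperTRIBE_mCherry) the editing domain was expressed without Mex3a, and 3 OSN and 3 mCherry-negative libraries were made. In the mice called MexHT (gg8tTA; OMPtTA; tetO-Mex3a_HyperTRIBE_mCherry) 6 OSN and 5 mCherry-negative libraries were made, and the OSN library of mouse 6 had no mCherry-negative partner. Their OSNs were labelled as immature and mature. The third genotype (gg8tTA; tetO-Mex3a_HyperTRIBE_mCherry, called gg8 MexHT) carries the driver of immature neurons alone, and 2 mice each gave a library of immature OSNs and a mCherry-negative one. All mice carry gg8tTA and a HyperTRIBE transgene, so no library comes from a mouse without the editing domain. The driver gg8tTA acts in immature and OMPtTA in mature OSNs. The sources used here give no age. Every level is a TPM, a transcript abundance scaled to the library total and corrected for transcript length. The 17 libraries with both drivers stand in a table of their own, apart from the 4 gg8 libraries, and tests were made within each table.

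Library depth ran from 7529648 to 15358109 counts. Mex3a itself stood at 24.0 to 61.5 TPM in HT OSNs, at 328.5 to 1271 TPM in MexHT OSNs and at 460.3 and 1632 TPM in gg8 MexHT OSNs. All OSN libraries labelled with Mex3a were above all HT OSN libraries, and the table does not separate transgene from endogenous transcripts. In mCherry-negative cells Mex3a stood at 29.3 to 74.35 TPM in HT mice and 57.8 to 206.8 TPM in MexHT mice, so these groups overlapped. It was at 211.3 and 101.1 TPM in those of gg8 MexHT mice 1 and 2. The summed level of 10 mature OSN markers was 10410 to 16140 TPM in HT OSNs and 1881 to 6975 TPM in MexHT OSNs, and in the 2 gg8 MexHT OSN libraries it was 277.5 and 642.0 TPM. For 9 immature OSN markers the sums were 2114 to 2455, 3810 to 4760, and 5344 and 5703 TPM in the same order. Mature OSN markers also summed to 6301 to 13320 TPM in HT mCherry-negative cells and 407.2 to 8311 TPM in MexHT mCherry-negative cells, and no marker was at 0 in all libraries of any group. Xist, transcribed in female cells, was at 60.3 TPM in OSNs of HT mouse 2 but at 0.126 and 0.140 TPM in those of HT mice 1 and 3, against 58.4 to 139.8 TPM in all 6 MexHT OSN libraries. In gg8 MexHT mouse 2 it stood at 159.4 TPM in OSNs and 21.4 TPM in the mCherry-negative cells.

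The receptors of chromosome 9 were low-level transcripts in every library. Their median level over the 9 OSN libraries with both drivers was 0.600 TPM, beside 0.705 TPM for all other Olfr genes, and 27 of the 104 had a mean of at least 1 TPM. Only Olfr877 had a mean of at least 5 TPM over these 9 libraries. For a receptor of median length, 3 counts corresponded to 0.240 to 0.552 TPM depending on the library, and single values near that level are limited by counting. Over the 21 libraries, no gene was at 0 counts throughout, 23 had a count in every library, 99 reached 1 TPM in at least 1 library, and none reached it in all of them. Of the 104, 67 shared at least 1 of their 75-base stretches with another gene. For most the shared part was small: 7 shared more than 10% of their stretches (most for Olfr955, 22.7%, with Olfr952), and none shared more than 50%.

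Summed over the 104 receptors, HT OSNs held 182.5, 229.7 and 53.2 TPM in mice 1 to 3. In MexHT OSNs the sums had a lowest value of 32.5, a median of 67.2 and a highest value of 103.1 TPM (n = 6). HT mice 1 and 2 stood above all 6 MexHT mice, whereas HT mouse 3 lay among them, so the groups overlapped. The group means were 155.1 ± 91.4 TPM (SD, n = 3) and 65.1 ± 27.7 TPM (SD, n = 6). In the mCherry-negative cells the sums were 205.3, 298.5 and 64.8 TPM in HT mice and 116.7, 133.6, 76.3, 123.9 and 49.0 TPM in MexHT mice, and HT mouse 3 was again the low HT library. OSNs of the gg8 MexHT mice summed to 80.6 and 6.18 TPM, far below the 365.1 and 437.8 TPM of their mCherry-negative partners. These are sums of bulk samples, in which fewer neurons expressing a receptor and less receptor RNA per neuron cannot be told apart.

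The number of receptors at 1 TPM or more was 45, 62 and 17 in HT OSNs and 21, 26, 36, 12, 5 and 6 in MexHT OSNs. In mCherry-negative cells it was 61, 73 and 19 for HT and 41, 46, 27, 43 and 15 for MexHT mice. HT mouse 3 had the fewest of the HT mice in both fractions, and MexHT mice 5 and 6 the fewest among MexHT OSNs. The gg8 MexHT OSN libraries had 9 and 0 such receptors, although 86 and 41 had at least 1 count, and their mCherry-negative partners had 92 and 93.

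**Figure D1:**
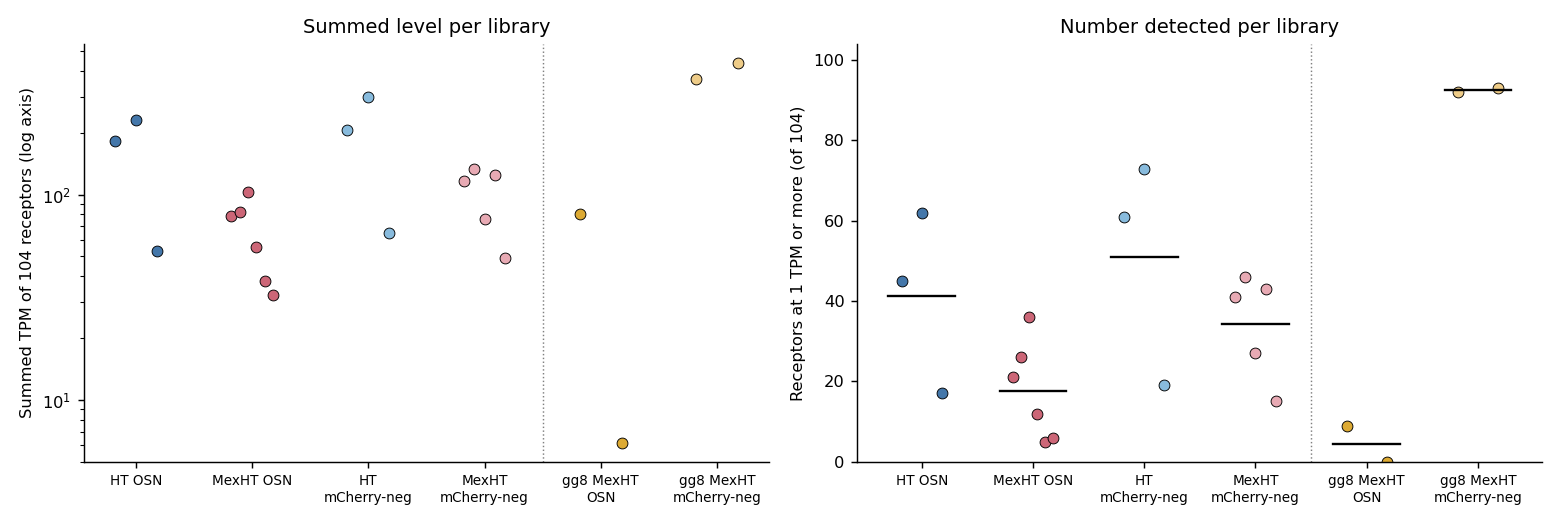
Summed TPM of the 104 chromosome 9 receptors in each library (left, log axis, 1 point a library) and the number of them at 1 TPM or more (right, black bars are group means), by group; the dotted line separates the 2 tables. HT mouse 3 lies with the MexHT libraries, and the gg8 MexHT OSN libraries (80.6 and 6.18 TPM) lie far below their mCherry-negative partners (365.1 and 437.8 TPM).

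As a share of all Olfr transcripts the chromosome 9 receptors varied far less. They made up 5.91%, 7.67% and 6.65% of the Olfr TPM in HT OSNs, and in MexHT OSNs from 6.65% over a median of 6.95% to 8.28%. The mCherry-negative libraries spanned 6.19% to 7.80% in HT and 6.25% to 7.91% in MexHT mice. The 4 groups with both drivers thus overlapped throughout. In the gg8 table the shares were 9.95% and 8.42% in OSNs and 8.68% and 9.18% in mCherry-negative cells. Relative to Omp, the olfactory marker protein of mature neurons, the receptors summed to 7.04, 8.49 and 2.98 TPM per 100 TPM of Omp in HT OSNs and to a lowest of 2.56, a median of 5.17 and a highest of 6.76 in MexHT OSNs, where again HT mouse 3 lay inside the range of the MexHT mice.

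The 8 receptors with the highest mean over the 9 OSN libraries with both drivers were Olfr877, Olfr959, Olfr972, Olfr969, Olfr868, Olfr981, Olfr944 and Olfr961, of which only Olfr868 lies in the proximal cluster. This mean pools groups that rank differently: in HT OSNs Olfr972 (8.69 TPM) and Olfr959 (8.60 TPM) had the highest means and Olfr877 had 4.46 TPM, whereas in MexHT OSNs Olfr877 led with 7.22 TPM, ahead of Olfr959 (3.17 TPM) and Olfr969 (3.12 TPM). The leading receptor differed between mice. In HT OSNs it was Olfr868 (13.9 TPM) in mouse 1, Olfr959 (16.6 TPM) in mouse 2 and Olfr832 (3.61 TPM) in mouse 3. Olfr877 led in MexHT mice 1, 2 and 4, Olfr969 in mouse 3, Olfr959 in mouse 5 and Olfr972 in mouse 6. Across the 104 receptors the group means of the 2 cell fractions ranked alike, with Spearman's rho of 0.79 between HT OSNs and HT mCherry-negative cells and 0.77 between the MexHT fractions; these are descriptions across genes that share libraries, lengths and depth. Between the HT and MexHT OSN means rho was 0.76.

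Olfr877 (chr9:37854820-37855755, plus strand, distal cluster) had the most uneven pattern. Its level was 5.55, 4.40 and 3.43 TPM in HT OSNs and 1.60, 3.72 and 0.715 TPM in the mCherry-negative cells of the same mice. In MexHT OSNs it was 8.05, 10.6, 6.54, 16.8, 0.517 and 0.784 TPM, against 1.53, 4.50, 1.02, 1.67 and 0.538 TPM in the mCherry-negative cells of mice 1 to 5. The OSN value was above the mCherry-negative value in 3 of 3 HT mice and 4 of 5 MexHT mice, MexHT mouse 5 being the exception. In MexHT mouse 4 this gene made up 30.3% of the TPM of all 104 receptors. The highest value of any receptor in any library, 32.2 TPM from 214 counts, was that of Olfr877 in OSNs of gg8 MexHT mouse 1, where it made up 40.0% of the sum; in OSNs of gg8 MexHT mouse 2 it was 0.328 TPM. The mCherry-negative cells of these mice had 6.05 and 3.84 TPM, so that the OSNs were the higher fraction in mouse 1 and the lower in mouse 2.

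Olfr959 (chr9:39572322-39573257, minus strand) stood at 7.81, 16.6 and 1.42 TPM in HT OSNs and at 1.29 (lowest), 3.24 (median) and 5.64 TPM (highest) in MexHT OSNs. For Olfr972 (chr9:39873277-39874221, plus strand) the HT OSN values were 12.5, 13.1 and 0.403 TPM and the MexHT OSN values ran from 0.683 over a median of 1.79 to 2.49 TPM. For both receptors HT mice 1 and 2 were above all MexHT mice and HT mouse 3 was within or below their range. Olfr969 (chr9:39795377-39796312, plus strand) was higher in mCherry-negative cells of HT mouse 2 (19.6 TPM) than in any OSN library with both drivers, and it reached 30.7 TPM in mCherry-negative cells of gg8 MexHT mouse 2.

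**Figure D2:**
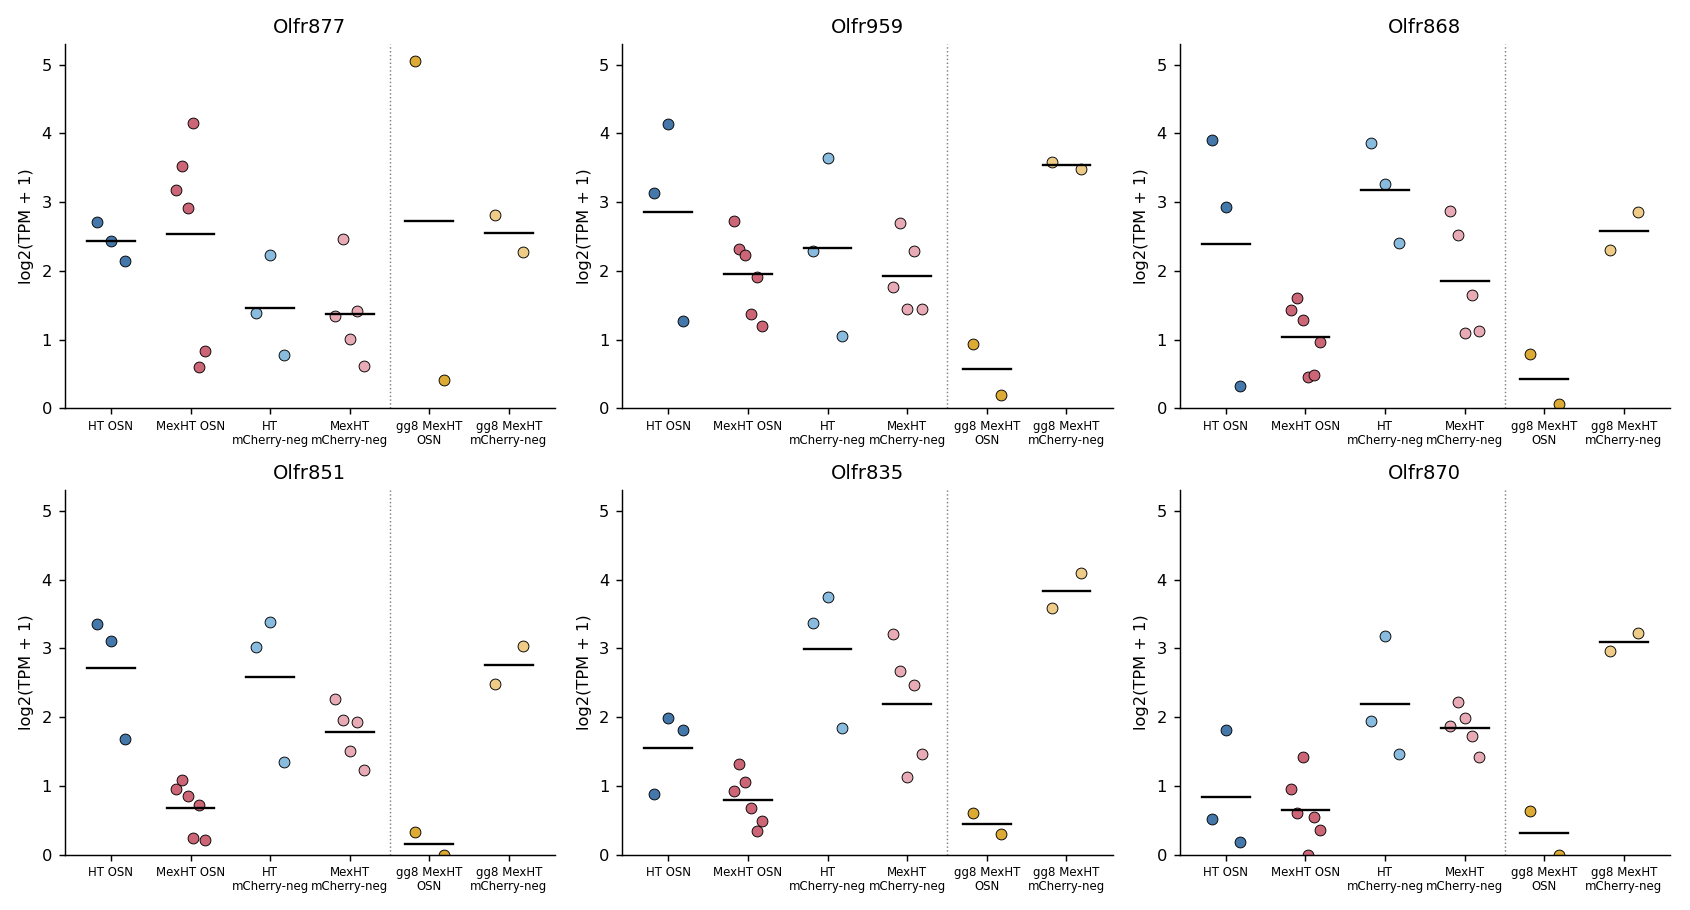
Level of 6 receptors, log2(TPM + 1), in each library (points) with the group mean (bar), by group. Olfr877 is above its mCherry-negative partners in most OSN libraries and spans 0.328 to 32.2 TPM in gg8 MexHT OSNs, whereas Olfr835 and Olfr870 are lower in OSNs.

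Olfr868 had the highest mean of the proximal cluster over the 9 OSN libraries with both drivers, through HT mice 1 and 2; in MexHT OSNs alone Olfr873 (mean 1.45 TPM) and Olfr832 (1.28 TPM) were above it (1.16 TPM). Its values were 13.9, 6.62 and 0.252 TPM in HT OSNs and 0.376 (lowest), 1.20 (median) and 2.06 TPM (highest) in MexHT OSNs, and HT mouse 3 again lay below every MexHT mouse. It was one of 3 receptors whose window of 250 bases before the RefSeq start site (GRCm38.p6) was free of annotated exons and whose start site lay more than 100 bases before the coding start. These windows are shown as the 3 that met both limits, since for 67 of the 88 receptors with a window, the RefSeq start site was within 30 bases of the coding start. Capitals mark TAATTA, the homeodomain core bound by Lhx2-type factors, in Olfr868 (chr9:20098376-20098625, plus strand) and Olfr860 (chr9:19849748-19849997, minus strand), and the variant TAATGA in Olfr871 (chr9:20211957-20212206, plus strand). All 3 lie in the proximal cluster.
Olfr868: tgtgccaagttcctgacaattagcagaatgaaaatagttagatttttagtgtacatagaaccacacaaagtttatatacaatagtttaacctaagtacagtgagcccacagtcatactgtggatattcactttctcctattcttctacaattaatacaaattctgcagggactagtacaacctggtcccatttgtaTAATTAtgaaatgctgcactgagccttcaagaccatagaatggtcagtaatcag
Olfr860: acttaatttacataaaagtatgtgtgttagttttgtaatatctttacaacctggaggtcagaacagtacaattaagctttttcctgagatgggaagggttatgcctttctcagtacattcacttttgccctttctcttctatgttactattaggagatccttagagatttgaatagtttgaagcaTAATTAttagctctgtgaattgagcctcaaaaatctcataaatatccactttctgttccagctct
Olfr871: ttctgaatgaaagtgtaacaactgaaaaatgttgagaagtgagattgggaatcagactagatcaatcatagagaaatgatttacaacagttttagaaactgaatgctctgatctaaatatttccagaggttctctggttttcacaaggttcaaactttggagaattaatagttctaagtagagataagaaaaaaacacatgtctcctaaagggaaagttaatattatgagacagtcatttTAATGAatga
Over the 17 libraries with both drivers Olfr868 had 1001 counts, Olfr860 30 and Olfr871 15, so these windows stood before receptors of very different level. Searched on both strands, TAATTA was in 21 of the 88 receptor windows (23.9%), in 17.6% of 826 windows of other Olfr genes and in 4.90% of 27025 windows of all genes. The pattern TAATGA, read as TCATTA on the other strand and able to share bases with TAATTA, was in 25.0%, 25.5% and 8.77%, and CCCNNGGG, which covers the Ebf core, in 1.14%, 2.91% and 11.7%. The chromosome 9 windows held these letters at about the share of other receptors. A match describes letters in a window and not a bound site.

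The comparison of MexHT OSNs with HT OSNs asks how receptor levels differ between sorted OSNs that express the editing domain with and without Mex3a, in different mice. The 7 receptors that passed the test were all lower in MexHT OSNs: Olfr851, Olfr869, Olfr845, Olfr944, Olfr968, Olfr943 and Olfr875. Of the 104 receptors 27 had a mean of at least 1 TPM over these 9 libraries and were tested, and 0 were higher. With limma (log2 of TPM + 1, Benjamini-Hochberg adjusted over all 16067 genes tested, two-sided, threshold 0.05), 16.8% of all genes were called lower and 19.9% higher. Of the 27, 12 reached a mean of 1 TPM in HT OSNs only and 0 in MexHT OSNs only, so the filter let in more receptors that are higher in HT. Of the 7 called, all but Olfr944 and Olfr943 had a MexHT OSN mean under 1 TPM and passed the filter through HT OSNs. Over all 104 receptors, with no filter, the difference was below 0 for 88 and above 0 for 15, with a median log2 difference of -0.33, beside -0.12 over all 23587 genes. Other Olfr genes had 85 lower and 1 higher of 346 tested, and no call particular to chromosome 9 can be read from these counts. The proximal cluster had 3 of 10 tested called lower and the distal cluster 4 of 17, with medians of -0.40 and -0.32 over all their 28 and 76 receptors, and the difference between the clusters was not tested.

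Olfr851 (chr9:19496750-19507113, plus strand, proximal cluster) fell most. Its level was 9.18, 7.58 and 2.22 TPM in HT OSNs, against 0.163 (lowest), 0.724 (median) and 1.12 TPM (highest) in MexHT OSNs. All 3 HT libraries were above all 6 MexHT libraries. The log2 difference was -2.04 (SE 0.38, adjusted p = 0.00298), a ratio of 0.244 on the scale of TPM + 1. Olfr968 (chr9:39771772-39772798, minus strand, distal cluster) was the other tested receptor whose groups did not overlap, with 1.86, 3.86 and 1.74 TPM in HT OSNs and 0.256 (lowest), 0.570 (median) and 1.00 TPM (highest) in MexHT OSNs. Its log2 difference was -1.11 (SE 0.27, adjusted p = 0.0109). Groups that did not overlap, lower in MexHT, were found for 2 of the 27 receptors and for 16.9% of all genes tested.

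In the other receptors called lower the groups overlapped. Olfr869 was at 8.30, 5.87 and 0.352 TPM in HT OSNs and at 0.0 (lowest), 0.358 (median) and 0.787 TPM (highest) in MexHT OSNs (log2 difference -1.67, SE 0.52, adjusted p = 0.0300). Olfr845 was at 6.99, 6.99 and 0.708 TPM, against 0.548, 0.703 and 1.53 TPM (log2 difference -1.37, SE 0.46, adjusted p = 0.0396). In both, HT mouse 3 lay within the MexHT values. Olfr944 (log2 difference -1.26, SE 0.43, adjusted p = 0.0403) was at 6.01, 5.78 and 3.06 TPM in HT OSNs, and of the MexHT mice only mouse 3, at 4.25 TPM, was above the lowest of these. Olfr943 was at 4.79, 4.31 and 1.72 TPM in HT OSNs, with a MexHT range of 0.897 to 2.07 TPM and a median of 1.23 TPM (log2 difference -0.92, SE 0.29, adjusted p = 0.0312). Olfr875, which was not among those chosen by the rule for named genes and is named after its values were seen, had a log2 difference of -0.84 (SE 0.30, adjusted p = 0.0474).

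The calls depended on single mice. Without the OSN library of HT mouse 2 only Olfr851 was called. The count was 3 without that of HT mouse 1, and 15, among them 6 of the 7, without that of HT mouse 3. It was 3 without MexHT mouse 2 and 4 without MexHT mouse 1, 4, 5 or 6. With the Xist level as a covariate 0 were called. Markers moved in the same comparison: 9 of 10 mature OSN markers were lower and 7 of 9 immature OSN markers higher in MexHT OSNs, and 5 of 8 immune markers were lower, with sums of 701.8 to 3001 TPM in HT and 186.2 to 364.9 TPM in MexHT OSNs. Their part in the receptor differences was not tested.

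In mCherry-negative cells, which in these mice lack the reporter, the same 2 genotypes gave no called receptor among the 45 tested. No gene at all was called (0% of 16860, limma). Over all 104 receptors the difference was below 0 for 87 and above 0 for 16, with a median of -0.36, beside -0.01 over all genes. At an unadjusted p under 0.05 there was 1 of the 45, Olfr868, beside 3465 of all 16860 genes. It was at 13.5, 8.59 and 4.29 TPM in HT mice and 6.34, 4.74, 1.13, 2.15 and 1.19 TPM in MexHT mice (log2 difference -1.32, SE 0.50, adjusted p = 0.22). HT mouse 3 lay below MexHT mice 1 and 2, so the groups overlapped. A count model on recovered counts (voom) also called 0. Olfr849 (log2 difference -0.92, SE 0.41, adjusted p = 0.247) and Olfr847 (-0.68, SE 0.32, adjusted p = 0.262) were next.

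**Figure D3:**
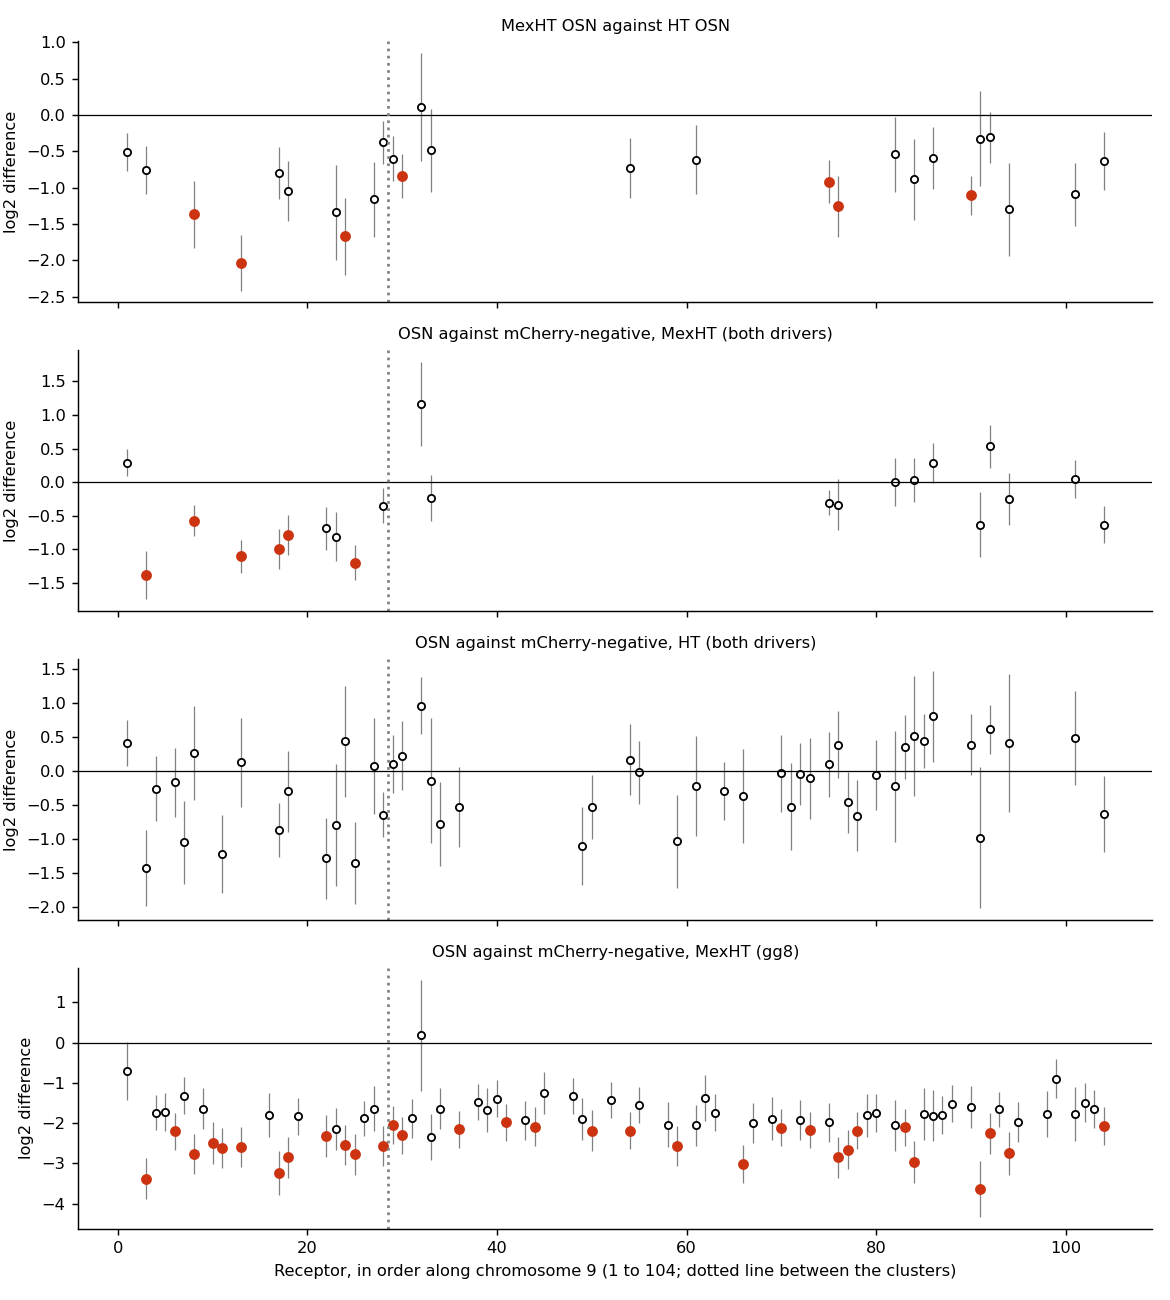
Log2 difference with its standard error for each tested receptor, in order along chromosome 9, in 4 comparisons; red points have an adjusted p under 0.05 and open points do not, and the dotted line separates the proximal from the distal cluster. In MexHT mice the 6 receptors lower in OSNs than in mCherry-negative cells are left of that line, although 8 distal receptors were also called lower when no filter on low values was used, while in gg8 MexHT mice the 32 lower receptors are in both clusters.

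The OSNs of MexHT mice were then compared with the mCherry-negative cells of those mice. The 6 receptors that passed the test were all lower in OSNs and all in the proximal cluster: Olfr835, Olfr870, Olfr851, Olfr857, Olfr859 and Olfr845. Of 22 tested receptors 6 (27.3%) were lower and 0 were higher, while 27.6% of all 16522 genes were called lower and 35.8% higher. The share called lower was thus about that of all genes. Of the 22, 7 reached a mean of 1 TPM in mCherry-negative cells only and 2 in OSNs only, so the filter let in more receptors that are lower in OSNs. Of the 6 called, all but Olfr859 had an OSN mean under 1 TPM. In the proximal cluster 6 of 10 tested were lower and in the distal cluster 0 of 12. That split depended on the filter on low values: with no filter 10 proximal and 8 distal receptors were called lower, Olfr916 of the distal cluster with a log2 difference of -1.25 (adjusted p = 0.000235). Over all 104 receptors the difference was below 0 for 25 of 28 proximal and 57 of 76 distal ones, with medians of -0.37 and -0.19, beside 0.03 over all genes. Among other Olfr genes 102 were lower and 9 higher of 335. This comparison and the one between MexHT and HT OSNs share the 6 MexHT OSN libraries, so the low MexHT values of Olfr851 and Olfr845 enter both.

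Olfr835 (chr9:19035125-19036060, plus strand) was at 0.895, 1.49, 1.07, 0.592 and 0.269 TPM in OSNs of MexHT mice 1 to 5 and 0.408 TPM in mouse 6. In the mCherry-negative cells of mice 1 to 5 it was at 8.28, 5.34, 1.18, 4.55 and 1.74 TPM, above the OSN value of the same mouse each time, although the groups overlapped through mouse 3. The log2 difference was -1.39 (SE 0.36, adjusted p = 0.00461). Olfr870 (chr9:20170634-20171569, minus strand) did not overlap, with a highest OSN value of 1.67 TPM and a lowest mCherry-negative value of 1.69 TPM (OSN median 0.493 TPM, mCherry-negative mean 2.66 TPM). Its log2 difference was -1.20 (SE 0.26, adjusted p = 0.00139). Olfr851 did not overlap either, with 1.34 to 3.82 TPM in mCherry-negative cells and at most 1.12 TPM in OSNs (log2 difference -1.10, SE 0.25, adjusted p = 0.00181). These 2 of 22 stand beside 19.6% of all genes whose groups did not overlap in this direction.

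Olfr857 (log2 difference -0.998, SE 0.30, adjusted p = 0.0112) and Olfr859 (-0.79, SE 0.30, adjusted p = 0.0347) overlapped between the fractions, and in MexHT mouse 3 they were at 2.01 and 1.95 TPM in OSNs beside 1.78 and 1.96 TPM in mCherry-negative cells. With the mouse as a block, 5 receptors were lower (Olfr835, Olfr851, Olfr857, Olfr868 and Olfr870) and Olfr877 was higher, with a log2 difference of 1.51 (SE 0.37, adjusted p = 0.00645) in place of 1.17 (SE 0.62, adjusted p = 0.120) without it. Without the mCherry-negative library of MexHT mouse 5, in which Omp stood at 46.9 TPM against 279.3 to 1431 TPM in the other 4, 11 receptors were lower, with all 6 of the above and the distal Olfr923 and Olfr984 among them. Connective tissue and vessel markers summed to 10680 to 23330 TPM in the mCherry-negative cells and to 124.4 to 237.0 TPM in the OSNs, and 5 of 5 were lower in OSNs. Immune markers summed to 3916 to 4972 TPM and 186.2 to 364.9 TPM, and of these 8 markers 5 were lower and 2 higher in OSNs. Their part in the receptor differences was not tested.

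In HT mice the same comparison of fractions called 0 of 50 receptors, where 11.3% of all 17027 genes were called in either direction (limma). At an unadjusted p under 0.05 there was 1 of the 50, Olfr835, beside 5821 of all 17027 genes. Voom called 0 receptors. Olfr835 was at 0.833, 2.95 and 2.52 TPM in HT OSNs and at 9.29, 12.5 and 2.58 TPM in mCherry-negative cells (log2 difference -1.43, SE 0.56, adjusted p = 0.130). The value of mouse 3 hardly differed between its fractions, and the groups overlapped. Olfr870 was at 0.434, 2.52 and 0.138 TPM, against 2.84, 8.07 and 1.76 TPM, lower in OSNs in each mouse (log2 difference -1.35, SE 0.60, adjusted p = 0.161). Olfr877 had an estimate of 0.96 (SE 0.42, adjusted p = 0.154). Over all 104 receptors the difference was below 0 for 62 and above 0 for 41, with a median of -0.29 in the proximal and -0.07 in the distal cluster, beside 0.13 over all genes. With the mouse as a block, Olfr849, Olfr867, Olfr870 and Olfr969 were called lower, with adjusted p-values of 0.0342, 0.0373, 0.0214 and 0.0347. Without the mCherry-negative library of HT mouse 2, Olfr877 was called higher (log2 difference 1.35, adjusted p = 0.0416), and without that of HT mouse 3, 3 receptors were lower. Without both libraries of HT mouse 3, a check added after the data were seen, 3 were lower (Olfr835, Olfr844 and Olfr904).

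The proximal cluster made up a smaller part of the receptor TPM in OSNs than in mCherry-negative cells of the same mouse in 3 of 3 HT, 5 of 5 MexHT and 2 of 2 gg8 MexHT mice. In HT mice its share was 35.1%, 29.8% and 30.3% in OSNs and 40.2%, 34.6% and 45.1% in mCherry-negative cells. In MexHT mice 1 to 5 it was 21.7%, 27.0%, 23.0%, 16.2% and 24.6% in OSNs, against 40.7%, 35.0%, 33.1%, 32.6% and 37.5%. In gg8 MexHT mice it was 17.8% and 29.2%, against 35.0% and 30.6%. These shares depend on single receptors. The distal Olfr877 alone made up 30.3% of the sum in OSNs of MexHT mouse 4 and 40.0% in OSNs of gg8 MexHT mouse 1. These were the OSN libraries with the lowest proximal share of their groups, and the shares without Olfr877 were not computed. No MexHT OSN library, mouse 6 at 25.1% included, reached the lowest mCherry-negative value, whereas the HT groups overlapped. The values of gg8 MexHT mouse 2 were the closest pair, and its OSN value rests on 80 counts over all 104 receptors. Its 2 libraries are labelled as 1 mouse, but their Xist levels of 159.4 and 21.4 TPM lie far apart, and whether they pair was not tested. The sum over both clusters was lower in OSNs in 9 of 10 mice, with OSN to mCherry-negative ratios of 0.889, 0.769 and 0.820 in HT mice, 0.676, 0.618, 1.35, 0.449 and 0.772 in MexHT mice, and 0.221 and 0.0141 in gg8 MexHT mice. Among the named receptors of the proximal cluster, Olfr835, Olfr849 and Olfr870 were lower in OSNs in 10 of 10 mice, and Olfr851 in 8 of 10. The proximal Olfr832 was higher in OSNs in 8 of 10. In the distal cluster, Olfr969 was lower in 9 of 10 and Olfr877 higher in 8 of 10. All of these receptors were named for their levels, p-values or calls in these same libraries, so their counts are no separate support. Both fractions come from 1 mouse and receptors of a cluster share its libraries, so these shares carry no test.

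**Figure D4:**
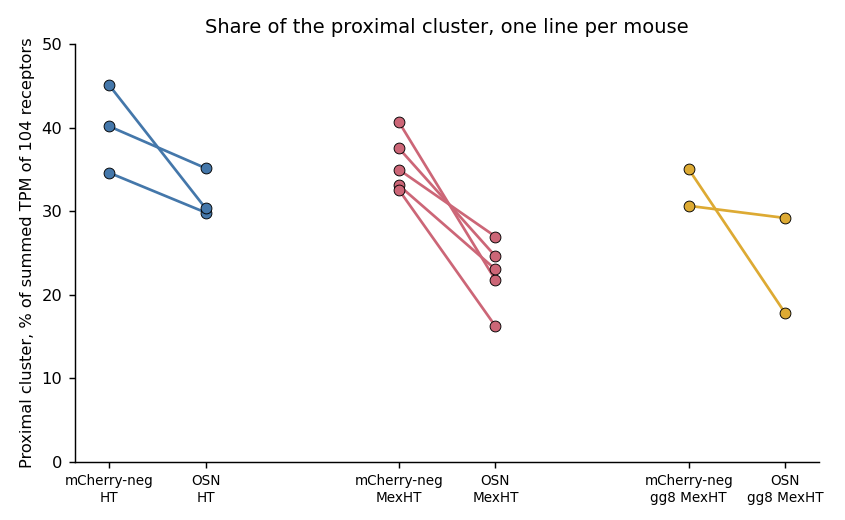
Percent of the summed TPM of the 104 receptors that came from the proximal cluster, in mCherry-negative cells and OSNs, with a line joining the libraries of each of the 3 HT, 5 MexHT and 2 gg8 MexHT mice. All 10 lines fall towards the OSNs, from 45.1% to 30.3% in HT mouse 3 and only from 30.6% to 29.2% in gg8 MexHT mouse 2. The distal Olfr877 alone made up 30.3% of the sum in OSNs of MexHT mouse 4 and 40.0% in OSNs of gg8 MexHT mouse 1.

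Whether the difference between OSNs and mCherry-negative cells itself differed between MexHT and HT mice was tested as an interaction. The fit had no term for the mouse, so both fractions of a mouse entered as separate libraries. Of 39 tested receptors 0 were called, while 12.4% of all 16785 genes were called in either direction (limma). At an unadjusted p under 0.05 there were 0 receptors, beside 4689 of all genes. Voom also called 0. The 3 receptors with the lowest p were Olfr851, at -1.23 (SE 0.61, adjusted p = 0.203), Olfr968 at -0.75 (SE 0.43, adjusted p = 0.275) and Olfr849 at 0.70 (SE 0.51, adjusted p = 0.402). The calls in MexHT and their lack in HT mice are therefore not shown to differ.

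In gg8 MexHT mice, whose labelled OSNs are immature, receptors of both clusters were lower in OSNs than in the mCherry-negative cells. Of 78 tested receptors 32 passed the test and were lower and 0 were higher, beside 7.20% of all 16490 genes lower and 1.12% higher (limma). Of the 78, 73 reached a mean of 1 TPM in mCherry-negative cells only and 0 in OSNs only, so the filter let in more receptors that are lower in OSNs. Over all 104 receptors, with no filter, the difference was below 0 for 101 and above 0 for 3, with a median of -1.77, beside 0.14 over all 22918 genes. Other Olfr genes had 261 lower of 744. The proximal cluster had 12 of 22 tested lower and the distal cluster 20 of 56, with medians of -1.86 and -1.75 over all 28 and 76 receptors.

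Olfr969 was at 0.772 and 0.140 TPM in OSNs of mice 1 and 2 and at 8.82 and 30.7 TPM in their mCherry-negative cells (log2 difference -3.63, SE 0.70, adjusted p = 0.0341). Olfr835 was at 0.522 and 0.228 TPM, against 11.0 and 16.0 TPM (-3.38, SE 0.51, adjusted p = 0.0249). Olfr857 was at 0.785 and 0.190 TPM, against 17.1 and 9.51 TPM (-3.24, SE 0.56, adjusted p = 0.0287). In each of them both mCherry-negative libraries were above both OSN libraries. Olfr923 (-3.02, SE 0.47, adjusted p = 0.0255) and Olfr959 (-2.97, SE 0.53, adjusted p = 0.0299) followed. Groups that did not overlap, lower in OSNs, were found for 76 of the 78 receptors tested. The same held for 95.0% of other Olfr genes and 30.2% of all genes tested. Olfr877 went the other way, with an estimate of 0.18 (SE 1.38, adjusted p = 0.936) and opposite signs in the 2 mice.

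Counting set a floor here. Of the 78, 41 had at most 3 counts in each OSN library, and 7 were at 0 in both. Against a floor of 3 counts in each OSN library, Olfr937 was at least 10.5-fold lower and Olfr890 at least 3.87-fold lower, and over all 104 receptors, with the 16 at 0 in both OSN libraries at their floor, the median log2 difference was -1.74. OSN mouse 2 had more than 3 counts for 3 receptors and OSN mouse 1 for 39. The number called went to 0 without either mCherry-negative library or without the OSN library of mouse 2 (0 genes were called at all in those fits), and to 60 without the OSN library of mouse 1. The lone library of a group is then assumed to vary like the other group. Of the mature OSN markers 9 of 10 were lower in OSNs, with sums of 277.5 and 642.0 TPM against 8826 and 15550 TPM, and their part in the receptor differences was not tested. Since the gg8 libraries were scaled apart from the others and each driver has its own date in the library names, driver and date cannot be told apart.

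Genes that work with the receptors were counted over 3 fixed lists. The odor transduction list holds 15 genes of the cascade that turns receptor binding into a current, and in MexHT against HT OSNs 13 were lower and 0 higher. Adcy3, the adenylyl cyclase of the cilia, had a mean of 924.0 TPM in HT and 150.6 TPM in MexHT OSNs (log2 difference -2.72, SE 0.38, adjusted p = 0.000765). Of 3 receptor trafficking genes, which bring receptors to the cell surface, 1 was lower, Rtp1 (-0.89, SE 0.31, adjusted p = 0.0432). Of 20 genes of receptor choice and feedback 11 were higher and 3 lower. Kdm1a, the histone demethylase needed for receptor activation, was higher by 1.01 (SE 0.14, adjusted p = 0.000711), and Lhx2 by 0.57. Among all genes of that comparison 16.8% were lower and 19.9% higher.

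Between OSNs and mCherry-negative cells of MexHT mice, 3 of 15 transduction genes were higher and 1 lower, 2 of 3 trafficking genes were higher (Reep1 by 1.92, SE 0.38, adjusted p = 0.000778, and Rtp2 by 1.01, SE 0.37, adjusted p = 0.0296) and 13 of 20 choice genes were higher and 3 lower, where 35.8% of all genes were higher and 27.6% lower. Lhx2, at a mean of 540.3 against 246.2 TPM, was higher by 1.16 (SE 0.16, adjusted p = 4.115e-05). In HT mice no transduction or trafficking gene was called, and 1 choice gene was higher and 2 lower, beside 11.3% of all genes called in either direction. In gg8 MexHT mice 12 of 15 transduction genes were lower in OSNs, beside 7.20% of all genes, with Gnal, the olfactory G protein subunit, falling from a mean of 1193 to 35.1 TPM (-5.13, SE 0.44, adjusted p = 0.00779). None of the trafficking or choice genes was called there. At an unadjusted p under 0.05 there were 2 of 3 and 8 of 20, beside 5111 of all 16490 genes. In mCherry-negative cells no gene of these lists was called between the genotypes, and in the interaction 3 choice genes were higher and no other was called.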

How the data were processed

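The authors deposited 2 tables of TPM values per gene (23614 genes in 17 libraries, 22945 in 4), made from total RNA of sorted olfactory cells with a stranded pico-input kit per the labels' protocols. The submitters' processing notes name cutadapt, FastQC, STAR and bedtools, without versions, and build mm10; counting, annotation and use of strand are not given in the sources used here. Symbols turned into dates (27, at most 0.221% of TPM) were left out. Whole counts behind the TPM were recovered for 100% and 99.855% of genes (tolerance 0.01), and depth and floors (3 counts) come from them; intervals and floors cover counting error only. Groups are the labels' genotype and cell fraction. Tests were limma 3.58.1 (R 4.3.3) with a trend on log2(TPM + 1), a minimum mean level of 1 TPM, Benjamini-Hochberg over all genes, two-sided, threshold 0.05, fitted on the groups compared, checked on simulated data. Differences over all 104 receptors are differences of group means of log2(TPM + 1) with no filter and no test. Each library is a mouse's cell fraction, and the labels state that both fractions of a replicate come from the same mouse, which is the pairing used as a block; MexHT OSN mouse 6 adds nothing there. Between HT and MexHT only the number is shared: same-numbered deviations correlated at 0.11, 0.13 and -0.23 in OSNs, and at 0.34, 0.42 and 0.23 in mCherry-negative cells, which by the rule used (over 0.1 in every pair) counts as pairing. The block there left 0 calls. Members and gene lists were chosen with earlier results of these data known. Named receptors are the 8 highest in OSNs and, per comparison, up to 10 (first) or 5 called in each direction with the largest log2 difference and at least 2 TPM in the higher group, or the 3 of lowest p where none was called. The highest receptor of each library was also named. Promoter windows come from RefSeq, GRCm38.p6. Alternatives are in the closing section.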

Additional observations from a re-analysis of the deposited data

Results flagged for a closer look

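Among 52 sets of values from groups of 4 to 10 libraries, 3 had a library whose gap to the rest exceeded Dixon's 95% limit, a rate near the 1 in 20 that chance gives. The chromosome 9 receptors made up 8.28% of Olfr TPM in OSNs of MexHT mouse 3, against 6.65% to 6.98% in the other 5 MexHT OSN libraries. Olfr869 was at 0.0 TPM in mCherry-negative cells of MexHT mouse 5, against 1.12 to 1.57 TPM in the other 4. Olfr877 was at 4.50 TPM in mCherry-negative cells of MexHT mouse 2, against 0.538 to 1.67 TPM in the other 4.

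For 5 receptors every mouse of one genotype had the OSN value above its mCherry-negative value and every gg8 MexHT mouse had it below; these differences on the log2(TPM + 1) scale were not tested, and the 2 tables were scaled apart. Olfr832 had a mean difference of 0.42 in HT and 0.34 in MexHT mice against -0.71 in gg8 MexHT mice, gaps of 1.13 and 1.05. Between HT and gg8 MexHT mice the gap was 3.49 for Olfr959 (0.52 against -2.97), 2.62 for Olfr961 (0.81 against -1.82), 1.99 for Olfr968 (0.39 against -1.61) and 2.26 for Olfr981 (0.49 against -1.77).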

How the results depend on the processing

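No difference of a receptor named for its comparison changed sign under the alternatives run. Medians were counted as reversed only where the main value exceeded the spread of libraries within groups, and none was. Calls in the other direction did appear. With the replicate block Olfr877 was called higher in OSNs of MexHT mice, beside 5 receptors lower. In HT mice it was called higher without the mCherry-negative library of mouse 2. Of the summary values, 16 of 91 moved or changed their side of the threshold under other settings and 15 of 186 without single libraries; of the values of single receptors, 17 of 157 and 44 of 219 did. For MexHT against HT OSNs, 7 lower receptors became 11 without a filter on low values, 1 with the replicate block (a shared number only; not every library correlated best with its own number) and 0 with Xist as a covariate, and 1 to 15 without single libraries; the median over tested receptors of -0.80 became -1.31 with voom and -1.53 with Xist. In mCherry-negative cells the median of -0.56 became -1.30 with Xist. For MexHT OSNs against mCherry-negative cells, 6 calls became 18 (8 of them distal) without the filter and 4 to 11 without single libraries (Olfr923 and Olfr984, both distal, among the 11). For HT mice, 0 calls became 4 with the replicate block, 1 with all 4 groups in a fit, 0 to 3 without single libraries and 3 without both libraries of mouse 3. For gg8 MexHT mice, 32 calls ranged from 0 to 60 without single libraries, and the median of -1.98 became -2.57 with a pseudocount of 0.5 and -4.42 with voom. In counts of receptors detected at 1 TPM, differences of -23.7 (MexHT against HT OSNs), -16.7 (MexHT fractions) and -88.0 (gg8 fractions) became -7.0, -0.80 and -26.5 at 5 TPM, and -37.0 for gg8 at any value above 0. The pairing changed no other count by over 1.5 times. The cause was not tested, except that dropping the filter or libraries changes which genes are tested. Depth limits receptors under about 0.5 TPM.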
